A study of Mus musculus with 7 samples.

Results

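The genes described here are Slc3a2, the heavy chain of the CD98 amino acid transporters, and 7 carriers of the Slc7 family, Slc7a1, Slc7a2, Slc7a5, Slc7a6, Slc7a7, Slc7a8 and Slc7a11. They were taken by name and not by a cut on measured values, but with earlier results of these data known. They make up 8 of the 31253 genes in the matrices. All 8 had counts in each of the 7 libraries of the series. Each library is a BD Rhapsody single-cell library of mouse aorta, in which every captured transcript carries a unique molecular identifier (UMI). The 3 control libraries came from Slc38a2flox/flox mice, and the 4 knockout libraries from Slc38a2deltaEC mice, read here as lacking Slc38a2 in endothelial cells. Mice of both groups ate a high-salt diet for 3 weeks, so every value below is from salt-loaded aorta. Slc38a2 encodes SNAT2, a sodium-coupled importer of small neutral amino acids. The labels name no Cre driver, age or sex, and do not say whether a library is a single animal or a pool, so p-values measure only the spread between these libraries.

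Members of this family move amino acids across the plasma membrane in 3 ways. Slc7a1 and Slc7a2 are single-chain carriers of arginine, lysine and ornithine, and arginine is the substrate of the nitric oxide synthases of endothelium and macrophages. The other light chains reach the membrane only when disulfide-bonded to Slc3a2. Slc7a5 and Slc7a8 then exchange large neutral amino acids such as leucine, Slc7a6 and Slc7a7 export arginine in exchange for neutral amino acids and sodium, and Slc7a11 imports cystine for glutathione synthesis in exchange for glutamate.

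The libraries held 6167 to 13792 barcodes and 22646246 to 73102988 UMIs each. After filters on gene number, mitochondrial share and doublets, 67477 of 76359 barcodes were kept, and 61589 of them were assigned to a class by marker genes, between 82.6% and 96.2% per library. The gate gave 35698 fibroblasts, 19415 smooth muscle cells, 3934 macrophages and 1134 endothelial cells. Endothelial cells were few, at 47 to 431 per library, and their summed counts held 185834 to 1608608 UMIs per library. The labels call the cells goblet cells, but 0 barcodes had UMIs of 3 or more of 7 goblet markers. Pairs of libraries shared 1.10% to 1.79% of the barcodes of the smaller library. Levels are given as CPM, the UMIs of a gene per 1000000 UMIs of all genes in that class and library. Such a level does not separate fewer cells with a transcript from fewer transcripts per cell.

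Slc3a2 was highest in macrophages and lowest in smooth muscle cells. Over the 7 libraries its level ranged from 483 to 1067 CPM in macrophages with a median of 678, from 175 to 396 in endothelial cells with a median of 329, from 138 to 356 in fibroblasts with a median of 204, and from 34.6 to 64.9 in smooth muscle cells with a median of 59.6. Macrophages exceeded the other 3 classes in 7 of 7 libraries, and the ranges of macrophages and smooth muscle cells lay far apart. Endothelial cells exceeded smooth muscle cells by a log2 difference of 2.21 (SE 0.14, adjusted p = 9.19e-13). Endothelial cells and fibroblasts overlapped, with a log2 difference of 0.26 (SE 0.14, adjusted p = 0.105). A Slc3a2 UMI was found in 78.9% of macrophages, 53.8% of endothelial cells, 51.7% of fibroblasts and 20.1% of smooth muscle cells, and thinning each cell to 2000 UMIs gave 65.8%, 42.1%, 29.6% and 9.67%. The gene spans chr19:8706882-8723369 on the minus strand (GRCm38, GENCODE vM21), and no other annotated gene overlaps it. Because fibroblasts were the most numerous class, they held 69.2% of all Slc3a2 UMIs of gated cells and macrophages 18.9%, whereas macrophages held 74.0% of Slc7a8 UMIs and fibroblasts 14.0%.

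**Figure D1:**
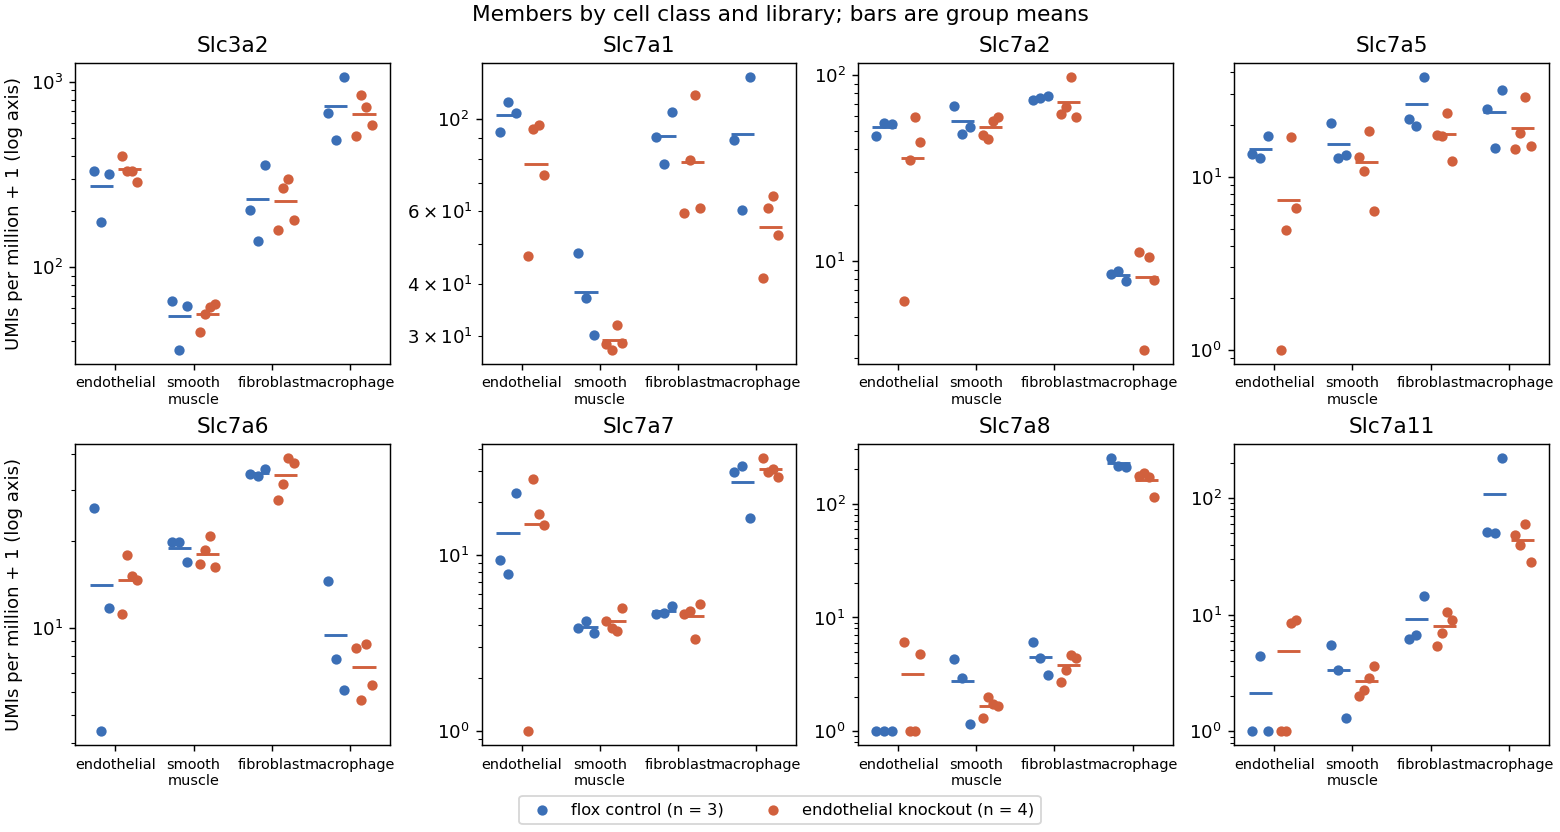
Level of each of the 8 genes (CPM + 1, log axis) in endothelial cells, smooth muscle cells, fibroblasts and macrophages. Points are libraries, blue for the 3 controls and orange for the 4 knockouts, and horizontal bars are group means; Slc7a8 and Slc7a11 stand highest in macrophages, Slc7a2 and Slc7a6 in fibroblasts.

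Among the leucine carriers, Slc7a8, the LAT2 light chain, was a macrophage transcript among the 4 large classes. It lies at chr14:54722209-54781946 on the minus strand, with no overlapping gene. Its level was 114 to 252 CPM in macrophages with a median of 185, 1.72 to 5.04 in fibroblasts, 0.153 to 3.30 in smooth muscle cells and 0 to 5.08 in endothelial cells, where only 7 UMIs were counted in 4652567. The lowest macrophage library was above the highest library of every other class. Macrophages exceeded fibroblasts by 5.99 on the log2 scale, written as -5.99 for fibroblasts against macrophages (SE 0.22, adjusted p = 4.65e-18). A Slc7a8 UMI was found in 48.8% of macrophages and in 1.54% of fibroblasts. The 8 macrophage markers together reached 10138 to 14111 CPM in macrophages and 18.4 to 88.5 CPM in fibroblasts, and their part in the low Slc7a8 counts of the other classes was not tested.

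Slc7a5, the LAT1 light chain, was low in all 4 classes; it lies at chr8:121881150-121907694 on the minus strand, with 1 annotated gene overlapping on the other. Fibroblasts held 11.4 to 36.7 CPM with a median of 18.5, macrophages 13.5 to 30.5 with a median of 16.8, smooth muscle cells 5.30 to 19.4 with a median of 12, and endothelial cells 0 to 16.1 with a median of 11.9. Fibroblasts and macrophages overlapped fully, with a log2 difference of -0.04 (SE 0.15, adjusted p = 0.835). Endothelial cells were below fibroblasts in 7 of 7 libraries, at -1.18 on the log2 scale (SE 0.27, adjusted p = 0.000616). This endothelial value rests on 42 UMIs in all.

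The y+L exchangers, Slc7a6 (chr8:106168857-106198706, plus strand) and Slc7a7 (chr14:54369442-54417780, minus strand), divided between the 4 large classes, to which the ranks given here refer. Slc7a6, the y+LAT2 light chain, was highest in fibroblasts, at 26.6 to 37.7 CPM with a median of 33.0, against 15.2 to 19.8 in smooth muscle cells, 3.40 to 25.1 in endothelial cells and 4.64 to 13.5 in macrophages. Slc7a7, the y+LAT1 light chain, was highest in macrophages, at 15.3 to 34.5 CPM with a median of 28.7, against 0 to 26.0 in endothelial cells, 2.35 to 4.25 in fibroblasts and 2.61 to 3.97 in smooth muscle cells. Fibroblasts were above macrophages for Slc7a6 by a log2 difference of 2.12 (SE 0.16, adjusted p = 5.6e-12) and below them for Slc7a7, at -3.06 (SE 0.16, adjusted p = 5.49e-15). Endothelial Slc7a7 exceeded the fibroblast level by a log2 difference of 1.85 (SE 0.26, adjusted p = 1.59e-06) and was higher in 6 of 7 libraries, on 69 UMIs. Slc7a7 overlaps Oxa1l on the opposite strand, and the labels do not say how the counting treated strand, so Slc7a7 counts are uncertain in that respect.

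Slc7a11, the xCT light chain, was highest in macrophages of the 4 large classes, at 70.3 ± 66.9 CPM (SD, n = 7). Its macrophage level was 50.6, 48.9 and 220 CPM in controls 1 to 3 and 46.8, 38.9, 59.2 and 27.5 CPM in knockouts 1 to 4. Control 3 stood alone at the top of that range, and the other 6 libraries lay between 27.5 and 59.2 CPM. The gene spans chr3:49892526-50443614 on the minus strand, and 5 annotated genes overlap it. Fibroblasts held 4.4 to 13.5 CPM, smooth muscle cells 0.307 to 4.45 and endothelial cells 0 to 8.08. Macrophages exceeded the mean of the other 3 classes by a log2 difference of 3.87 (SE 0.27, adjusted p = 1.14e-12).

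The arginine importers also differed among the 4 large classes. Slc7a1, known as CAT1, had overlapping ranges in endothelial cells (45.7 to 109 CPM, median 93.8), fibroblasts (58.5 to 113, median 78.7) and macrophages (40.4 to 125, median 60.1). It was lowest in smooth muscle cells, at 26.7 to 46.5 CPM, which lay 1.25 below fibroblasts on the log2 scale, a value of -1.25 (SE 0.13, adjusted p = 7.09e-09). Endothelial and fibroblast Slc7a1 differed by -0.06 (SE 0.16, adjusted p = 0.792). Slc7a2, known as CAT2, was highest in fibroblasts at 58.6 to 97.0 CPM, followed by smooth muscle cells at 44.3 to 67.6 and endothelial cells at 5.08 to 58.2. Macrophages were lowest for Slc7a2, at 2.32 to 10.2 CPM. Fibroblasts exceeded macrophages by a log2 difference of 3.28 (SE 0.18, adjusted p = 1.43e-14), and smooth muscle cells were below fibroblasts in 7 of 7 libraries at -0.35 (SE 0.13, adjusted p = 0.0157). Macrophages were thus last of the 4 classes for Slc7a2 and first for Slc7a8. Slc7a1 lies at chr5:148327410-148399904 on the minus strand and Slc7a2 at chr8:40862396-40922308 on the plus strand, where 1 other annotated gene overlaps it.

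Each class was then compared with the mean of the other 3 in a model with library as a block (edgeR quasi-likelihood test, Benjamini-Hochberg adjustment over 12768 genes). Many genes differ between such classes, so the share of all tested genes called is given beside each count. In macrophages 5 of 8 members were called higher, where 35.1% of all genes were, and 2 lower, where 43.6% were. The higher genes were Slc7a8 (6.82, SE 0.19), Slc7a11, Slc7a7 (2.50, SE 0.14), Slc3a2 (2.25, SE 0.10) and Slc7a5 (0.61, SE 0.16), and the lower were Slc7a2 (-2.87, SE 0.17) and Slc7a6 (-1.35, SE 0.17), all as log2 differences; the median over all genes in this contrast was -0.15. In fibroblasts 4 members were called higher (35.1% of all genes) and 2 lower (33.7%). Those higher were Slc7a2 (1.5, SE 0.12), Slc7a6 (1.47, SE 0.11), Slc7a5 (0.56, SE 0.14) and Slc7a1 (0.52, SE 0.11), and Slc3a2 showed no call with an adjusted p of 0.991. Those lower were Slc7a7 (-1.59, SE 0.15) and Slc7a8 (-1.17, SE 0.43).

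Smooth muscle cells had 2 members higher (39.7% of all genes), Slc7a2 at 1.03 (SE 0.12) and Slc7a6 at 0.41 (SE 0.12). Their 5 lower members (36.9% of all genes) were Slc7a8 at -2.97 (SE 0.59), Slc3a2 at -2.60 (SE 0.13), Slc7a11 at -2.55 (SE 0.45), Slc7a7 at -1.80 (SE 0.17) and Slc7a1 at -1.15 (SE 0.12). Endothelial cells had 3 members higher (25% of all genes), Slc7a7 at 0.89 (SE 0.24), Slc7a1 at 0.45 (SE 0.14) and Slc3a2 at 0.35 (SE 0.11). Their 3 lower members (26.2% of all genes) were Slc7a8 at -2.68 (SE 0.66), Slc7a5 at -1.02 (SE 0.27) and Slc7a6 at -0.52 (SE 0.22). Several calls ended when a library was left out or the model changed. Without the library block 3 of these 6 were called. Slc3a2 was not called without knockout 1 (0.21), Slc7a7 not without knockout 2 (0.62), Slc7a1 not without control 2 (0.36), knockout 2 (0.38) or knockout 4 (0.40), and Slc7a6 not without control 2 (-0.37), control 3 (-0.53), knockout 1 (-0.53), knockout 3 (-0.52) or knockout 4 (-0.63). Without knockout 1, Slc7a2 in endothelial cells (0.41) and Slc7a1 in macrophages (0.26) were called higher. Leaving out knockout 4 ended the call of Slc7a8 in smooth muscle cells (-2.19) and in fibroblasts (-0.49).

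**Figure D2:**
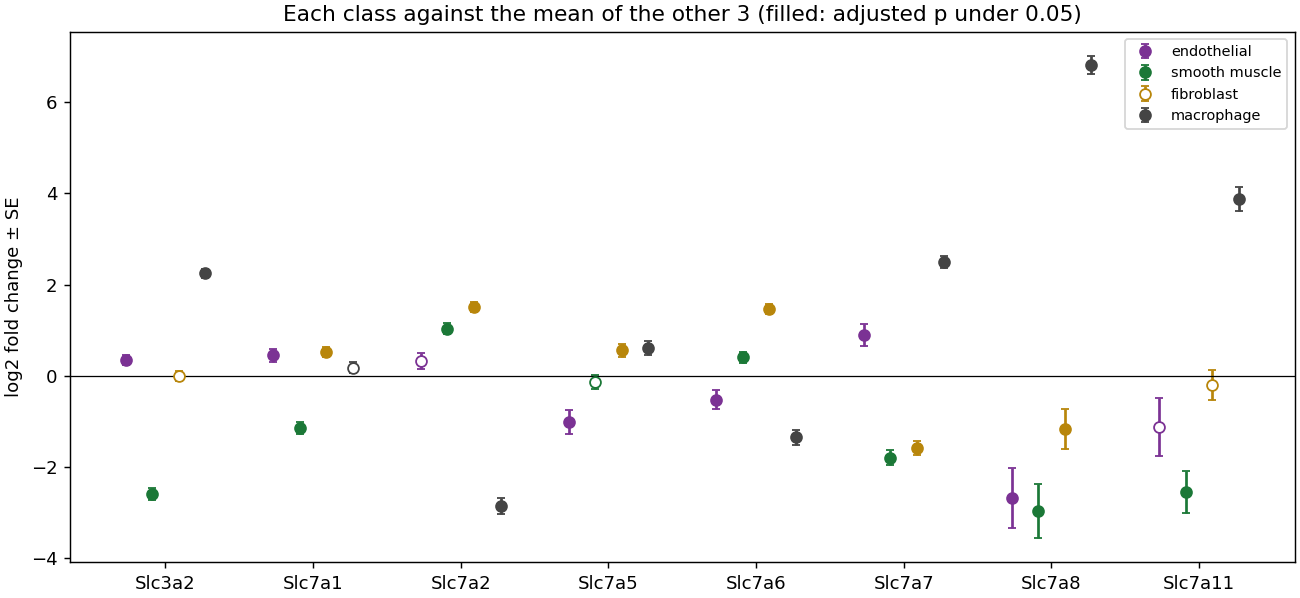
Log2 fold change with its SE for each of the 8 genes in each class against the mean of the other 3, with 7 libraries per class. Filled points have an adjusted p under 0.05, open points do not; the macrophage points of Slc7a8 (6.82) and Slc7a11 (3.87) are the highest drawn, and that of Slc7a2 (-2.87) lies among the lowest.

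The 4 classes were also tested in 6 pairs. Between smooth muscle cells and macrophages all 8 were called, 2 higher and 6 lower in smooth muscle, with 80.9% of all genes called. Between smooth muscle cells and fibroblasts 7 were called, all lower in smooth muscle cells, where 74.2% of genes were called in either direction. Between endothelial cells and macrophages 7 were called (65.3% of genes), between fibroblasts and macrophages 6 (75.6%), between endothelial and smooth muscle cells 5 (57.6%), and between endothelial cells and fibroblasts 4 (55.5%).

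The smaller classes were not tested, and their levels are pooled UMIs with exact 95% Poisson intervals that cover counting error only. Slc7a11 reached 3115 CPM in 218 neutrophils (2944 to 3293), with a UMI in 88.1% of them. It was high in neutrophils of every library, from 2598 CPM in knockout 2 to 5979 CPM in knockout 3, although 127 of the 218 cells came from knockout 1. Monocytes held 860 CPM of Slc7a11 (784 to 941) in 108 cells. Red blood cell precursors and mature red cells, which carry little of their own mRNA for most genes, gave 17.2 CPM in 242 cells with a UMI in 1.65% of them. Of these 242 cells 129 came from knockout 4, so red cells and neutrophils came mostly from different libraries. The red cells had a median depth of 2815 UMIs a cell, against 1714 in neutrophils.

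Mast cells, the tissue-resident granulocytes of allergy, stood out for the leucine carriers. Over the 5 libraries with 20 or more mast cells, Slc7a5 was at 458 ± 120 CPM (SD, n = 5) and Slc7a8 at 504 ± 146 CPM (SD, n = 5). Slc7a5 had a UMI in 61.2% of the 245 mast cells and Slc7a8 in 67.3%, against 8.26% and 1.24% of erythroid cells. Erythroid Slc7a5 was itself above each of the 4 large classes in 4 of 4 libraries, at a mean of 58.8 CPM, so it is no floor for that gene. Slc3a2 was at 768 ± 207 CPM in the same cells (SD, n = 5) and was above the macrophage level of the same library in 5 of 5 libraries. In contrast to macrophages, mast cells gave 0 UMIs of Slc7a7 in 911615, which allows up to 3.29 CPM. Pooled Slc7a7 was at 44.2 CPM in 50 lymphatic endothelial cells (17.8 to 91.1), on 7 UMIs, against 29.2 CPM in macrophages (26.8 to 31.7).

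Slc3a2 differed among lymphocytes, at 545 CPM in T cells (489 to 607), 588 in NK cells (438 to 774) and 134 in B cells (95.2 to 183), all pooled. In T cells, over 4 libraries, Slc3a2 was at 487 ± 171 CPM, Slc7a1 at 179 ± 93.5, Slc7a5 at 88.8 ± 38.0 and Slc7a6 at 66.9 ± 10.1 (SD, n = 4). T cell Slc7a6 was above the fibroblast level in 4 of 4 libraries. Pooled Slc7a1 was 172 CPM in 148 B cells (127 to 226), 197 in 46 dendritic cells (148 to 256) and 162 in 37 NK cells (88.3 to 271), each above the 17.6 CPM of neutrophils (7.09 to 36.3). Slc7a2 was at 83.9 CPM in 68 Schwann cells (44.7 to 144), and no UMI of it was found in neutrophils, B cells or NK cells, which allows up to 7.56, 10.3 and 34.6 CPM.

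**Figure D3:**
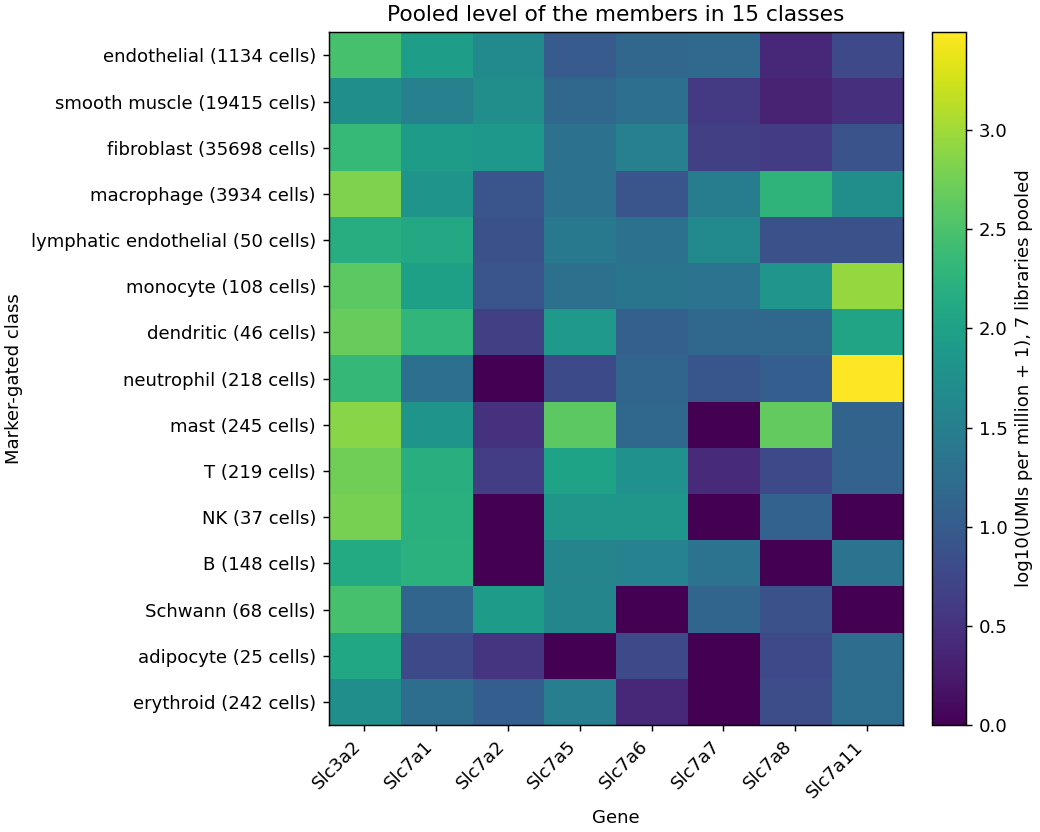
Pooled level of the 8 genes in 15 marker-gated classes, as log10(CPM + 1), with the number of cells of each class beside its name. The brightest tile is Slc7a11 in neutrophils (3115 CPM), and mast cells show bright tiles for Slc3a2, Slc7a5 and Slc7a8.

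Levels within fibroblasts and macrophages were described by sets of genes chosen after the data had been seen, with no test. Fibroblasts with UMIs of at least 2 of Cxcl1, Il6, Lif and Ptgs2, which encode inflammatory mediators and their enzyme, numbered 20690, and 8002 had none. Slc3a2 was at 169 to 432 CPM in the first set and 60.5 to 110 CPM in the second, higher in 7 of 7 libraries with no overlap. Slc7a1 (73.3 to 127 against 19.1 to 89.8 CPM) and Slc7a5 (13.9 to 44.8 against 4.51 to 19.9 CPM) were also higher in 7 of 7 libraries. Slc7a2 went the other way, at 53.2 to 93.7 against 69.1 to 130 CPM, and was lower in 6 of 7. The first set was deeper, with a median of 7021 UMIs a cell against 3093, but among cells of 3000 to 8000 UMIs Slc3a2 was still at 159 to 407 against 59.4 to 105 CPM. A list of 15 immediate early and heat shock genes, which respond to tissue digestion, moved with these sets, at 22421 to 31740 against 6810 to 14417 summed CPM, and its part in the differences was not tested. The aortas had been digested with enzymes before capture.

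In macrophages the cystine carrier moved with the cytokine genes. Macrophages with at least 2 of Il1b, Tnf, Ccl4 and Cxcl2, which encode inflammatory cytokines, numbered 3000 and held Slc7a11 at 30.9 to 233 CPM, against 0 to 10.6 CPM in the 479 with none. Slc3a2 moved the same way, at 557 to 1107 against 170 to 290 CPM, and both were higher in 7 of 7 libraries. Slc7a7 was lower in 6 of 7 libraries, at 16.1 to 30.1 against 0 to 57.4 CPM. The set with none held only 5 to 133 cells per library and 7 Slc7a11 UMIs in all. It was also shallower, with a median of 2457 UMIs a cell against 4822. Among cells of 3000 to 8000 UMIs Slc7a11 was at 33.2 to 245 against 0 to 19.2 CPM, on 6 UMIs in the set with none. Slc3a2 was at 605 to 1162 against 199 to 331 CPM there. The digestion list was higher with the cytokine genes in 3 of 7 libraries and lower in 4.

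Resident markers divided Slc7a11 in the opposite direction, but within the same 3934 macrophages. The 3000 cells with cytokine genes and the 3233 with resident genes therefore overlap, and they are not separate populations. Macrophages with at least 2 of Folr2, Lyve1, Cd163 and Timd4, which mark tissue-resident macrophages, numbered 3233 and held Slc7a11 at 8.31 to 76.4 CPM, against 146 to 589 CPM in the 361 with none, lower in 7 of 7 libraries without overlap. Slc7a1 was also lower in 7 of 7, at 32.7 to 123 against 54.2 to 148 CPM, and Slc7a8 lay at 114 to 259 against 99.1 to 246 CPM. The cells without resident genes were shallower, with a median of 2886 UMIs a cell against 4860. Among cells of 3000 to 8000 UMIs Slc7a11 was at 9.25 to 81.2 against 126 to 724 CPM. It was lower there in 7 of 7 libraries, and Slc7a1 in 6 of 7. The summed level of the 6 monocyte markers was 227 to 1116 CPM in the cells without resident genes and 36.2 to 137 CPM in those with them. The 7 neutrophil markers went the other way, at 19.9 to 91.0 against 68.3 to 318 CPM. The digestion list was at 15112 to 25124 summed CPM in the cells with resident genes and 7990 to 12822 CPM in those without. It was thus higher with resident genes in 7 of 7 libraries, without overlap. The part of monocyte transcripts or of digestion in the Slc7a11 difference between these sets was not tested.

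**Figure D4:**
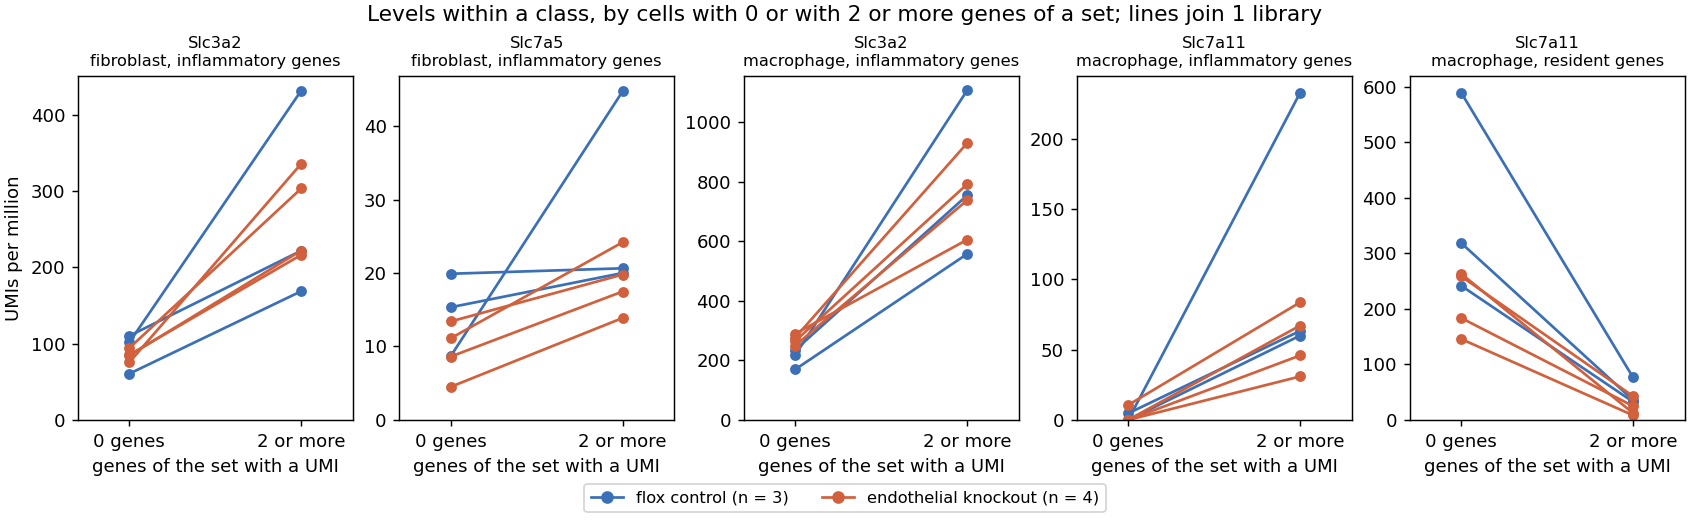
Level of Slc3a2, Slc7a5 and Slc7a11 (CPM) in cells with UMIs of 0 or of 2 or more genes of a set, within fibroblasts and macrophages. Each line joins the values of 1 library (blue for the 3 controls, orange for the 4 knockouts); lines rise in 7 of 7 libraries for Slc3a2 and Slc7a5 in fibroblasts and for Slc3a2 and Slc7a11 in macrophages with the inflammatory sets, and fall for Slc7a11 in macrophages with the resident set.

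The next comparison asked whether the members differed between genotypes within a class. The targeted gene is given first. Endothelial Slc38a2 was 443, 386 and 323 CPM in controls 1 to 3 and 193, 276, 333 and 277 CPM in knockouts 1 to 4, a log2 difference of -0.42 (SE 0.23, adjusted p = 0.835). The groups overlapped, since knockout 3 lay above control 3. Slc38a2 was also lower on average in knockout macrophages (-0.43, SE 0.20, adjusted p = 0.65) and fibroblasts (-0.39, SE 0.27, adjusted p = 0.947). In smooth muscle cells the difference was -0.09 (SE 0.19, adjusted p = 0.979). Counts of a gene need not fall where only part of it is deleted, and which part is deleted is not given in the sources used here. Neither this nor any other reason for the overlap was tested.

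No member was called in any class, in the endothelial cells (3 of 8 members passed the filter on low counts), smooth muscle cells, fibroblasts or macrophages (8 of 8 in each). The background was also 0, since edgeR called 0% of all genes in each class, while DESeq2 called 0, 10, 6 and 4 genes in that order and no member. At an unadjusted p under 0.05 the members counted were 0 in endothelial cells, 1 in smooth muscle cells, 0 in fibroblasts and 3 in macrophages, where the shares of all genes were 5.45%, 5.12%, 4.63% and 7.66%. In simulated endothelial sums of the same size, 30.8% of 2-fold and 97.8% of 4-fold changes were called, against 45.3% and 98% in simulated macrophage sums. The groups did not overlap for 0 of 8 members in endothelial cells (7.64% of tested genes), 0 in smooth muscle cells (5.3%), 0 in fibroblasts (4.8%) and 1 in macrophages (8.2%).

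In endothelial cells the heavy chain and both arginine importers passed the filter. Slc3a2 was 330, 175 and 317 CPM in the controls and 396, 331, 329 and 288 CPM in the knockouts. Control 2 was lowest and the other 6 libraries lay together, giving a log2 difference of 0.35 (SE 0.25, adjusted p = 0.841) that fell to 0.09 without control 2. Endothelial Slc7a1 was 92.0, 109 and 102 CPM in the controls and 45.7, 93.8, 95.7 and 72.1 CPM in the knockouts, with a log2 difference of -0.27 (SE 0.25, adjusted p = 0.886). Endothelial Slc7a2 was 46.0, 54.4 and 53.8 CPM in the controls and 5.08, 33.9, 58.2 and 42.9 CPM in the knockouts (-0.26, SE 0.40, adjusted p = 0.951), where the low value of knockout 1 is 1 UMI. The smooth muscle marker list was at 689 to 1187 summed CPM in control and 375 to 543 in knockout endothelial sums, and its part in these values was not tested.

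Slc7a8 in macrophages was the one case in which the groups did not overlap. It was 252, 213 and 210 CPM in controls 1 to 3 and 174, 185, 172 and 114 CPM in knockouts 1 to 4, so that every knockout lay below every control. The means were 225 ± 23.0 CPM (SD, n = 3) and 161 ± 32.0 CPM (SD, n = 4), and the log2 difference was -0.49 (SE 0.19, adjusted p = 0.639). The exact permutation test on CPM, two-sided, gave p = 0.0286, the smallest that 35 splits allow, and 0.731 after adjustment over the 32 member and class pairs. In smooth muscle cells Slc7a8 had a log2 difference of -1.39 (SE 0.65, adjusted p = 0.912), at 3.30, 1.92 and 0.153 CPM in the controls and 0.299, 1.01, 0.751 and 0.662 CPM in the knockouts. The groups overlapped there, and the difference was -0.71 without control 1. The summed smooth muscle markers in macrophages were 228 to 933 CPM in controls and 121 to 258 CPM in knockouts. Macrophage Slc7a1 was 88.0, 59.4 and 125 CPM in the controls and 40.4, 60.1, 64.1 and 51.5 CPM in the knockouts (-0.69, SE 0.29, adjusted p = 0.65), and the groups overlapped. Without control 3 that difference was -0.33.

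The Slc7a11 difference in macrophages rested on control 3. It was -1.22 on the log2 scale with all libraries (SE 0.54, adjusted p = 0.65) and -0.11 without control 3. In macrophages of control 3 the summed neutrophil markers were at 72.9 CPM, the lowest of the 7 libraries. Monocyte markers were at 173 CPM there, against 44.2 to 209 CPM over all libraries. The part of neutrophil or monocyte transcripts in the Slc7a11 difference was not tested. In smooth muscle cells Slc7a1 was 46.5, 36 and 29.2 CPM in the controls and 27.7, 26.7, 30.8 and 27.8 CPM in the knockouts (-0.31, SE 0.13, adjusted p = 0.912), which overlapped at control 3 and knockout 3. In fibroblasts Slc7a5 was 20.6, 18.5 and 36.7 CPM in the controls and 16.4, 16.2, 22.4 and 11.4 CPM in the knockouts (-0.58, SE 0.31, adjusted p = 0.947). Of the tested members the knockouts were lower for 2 of 3 in endothelial cells, 5 of 8 in smooth muscle cells, 7 of 8 in fibroblasts and 7 of 8 in macrophages, none of them called. The medians were -0.26, -0.11, -0.13 and -0.33, where 50.5%, 51.1%, 51.5% and 50.5% of all genes were lower. Members share libraries, so these counts are not independent.

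**Figure D5:**
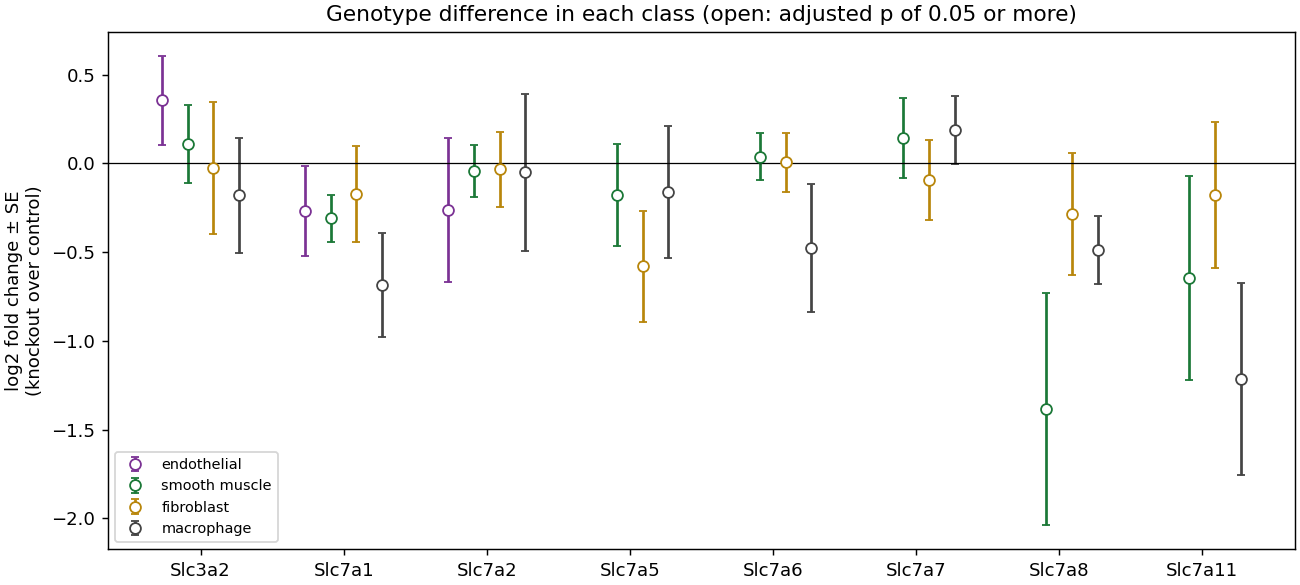
Log2 fold change of knockout over control with its SE for the members that passed the filter, 3 in endothelial cells and 8 in each of the other classes. All points are open because no adjusted p was under 0.05; the widest bars belong to Slc7a8 in smooth muscle cells and Slc7a11 in macrophages and smooth muscle cells.

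Whether the genotype difference itself differed between endothelial and smooth muscle cells was tested for the 6 members that passed the filter. None was called, with an adjusted p of 1 for each, and edgeR called 0% of all genes, 3.17% at an unadjusted p under 0.05. None of the 6 members had an unadjusted p under 0.05. The estimates ran from -0.38 for Slc7a5 (SE 0.63) to 0.54 for Slc7a6 (SE 0.60), and in simulated data only 17.9% of 2-fold differences of this kind were called.

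Other genes of the same pathways were followed as fixed lists. Between genotypes edgeR called 0 members of each of the 9 lists in each of the 4 classes. The list of 21 other amino acid transporters had 7 tested in endothelial cells, with a median log2 difference of -0.29 against -0.01 for all genes. The targeted Slc38a2 (-0.42) is itself 1 of these 7, so the list is not independent of the knockout. Of the 25 genes of the amino acid stress response driven by the factor ATF4, 11 were tested in endothelial cells, where Atf4 itself was at -0.73 (SE 0.35, adjusted p = 0.835). None of these genes was called, and those below 0 were 8 of 11 in endothelial cells, 11 of 24 in smooth muscle cells, 20 of 25 in fibroblasts and 12 of 17 in macrophages, beside the shares of all genes given above. The 19 genes of cystine and glutathione metabolism had 13 tested in endothelial cells, 3 of them at an unadjusted p under 0.05, where 5.45% of all genes were. Each other list had 0 or 1 such gene there, so this list is the highest of the 9. The 3 genes were Me1 (1.21, SE 0.34), Nqo1 (1.59, SE 0.54) and Txnrd1 (-0.80, SE 0.31), each with an adjusted p of 0.835. Me1, the cytosolic malic enzyme, was 50.2, 34.0 and 26.9 CPM in the controls and 35.6, 88.5, 95.7 and 82.7 CPM in the knockouts, with knockout 1 among the controls. Of the alternatives run, Me1 was called only without the filter on low counts (1.28).

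Between classes more list genes were called, as were more of all genes. Against the mean of the other 3, fibroblasts had 18 of 24 tested ATF4 genes higher and 2 lower, and 12 of 17 other transporters higher and 4 lower. Macrophages had 11 of 17 cystine and glutathione genes higher and 5 lower, and 16 of 27 genes of leucine sensing and mTORC1, the growth kinase that leucine activates, higher and 7 lower. Smooth muscle cells had 7 of 8 genes of branched-chain amino acid breakdown higher and 1 lower, while macrophages had 0 higher and 5 lower. Of 13 tested genes of arginine and nitric oxide metabolism, endothelial cells had 5 higher and 3 lower. On that list macrophages had 6 higher and 5 lower, fibroblasts 5 and 6, and smooth muscle cells 3 and 8. Of all genes, 35.1% were higher and 33.7% lower in fibroblasts, and 35.1% and 43.6% in macrophages. The shares were 39.7% and 36.9% in smooth muscle cells and 25% and 26.2% in endothelial cells. No list was tested as a set.

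The genes whose log2 CPM ran most like each member over 48 library and class sums in 11 classes are given as a description, since the sums share libraries and depth. Slc7a11 was most like Arg2 (r = 0.89), the mitochondrial arginase, and Gpr84 (0.89), a receptor for medium-chain fatty acids. Slc7a8 was most like Foxred2 (0.91) and Clec10a (0.90), a macrophage lectin. Slc3a2 was most like Eaf1 (0.89), Top1 (0.87) and Arhgap18 (0.83), and Slc7a2 like Selenom (0.87), Bace1 (0.86) and Nnmt (0.86). Slc7a6 followed Tmem208 (0.85), Sesn3 (0.80) and Tbck (0.79), Slc7a7 followed Smagp (0.79), Sgk3 (0.77) and Lgmn (0.76), Slc7a1 followed Appbp2 (0.77), Prrc2c (0.74) and Eef2 (0.74), and Slc7a5 followed Il1rl1 (0.74), a cytokine receptor of mast cells, Cst7 (0.73) and Tespa1 (0.73). Among the members themselves Slc3a2 ran most like Slc7a8 (r = 0.63) and Slc7a1 (0.52), and its r with the other light chains was 0.39 for Slc7a5, 0.27 for Slc7a11 and 0.14 for both Slc7a6 and Slc7a7.

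The promoters of the 3 light chains that were highest in macrophages among the 4 large classes were read from RefSeq (GRCm38.p6). They are not a group apart, since Slc3a2 was also highest in macrophages of these classes. Over the 48 sums their r was 0.31 for Slc7a7 with Slc7a11, 0.19 for Slc7a8 with Slc7a11 and 0.01 for Slc7a7 with Slc7a8. RefSeq windows were found for 6 of the 8 members, 12 windows in all, each from 250 bases before a start site to 50 after. The C/EBP-ATF response element, written TGATGNAA and bound by ATF4, was searched on both strands and occurs in 3.97% of 32851 such windows. It was found in 1 window of Slc7a11 and in 2 of Slc7a7, which overlap and share 1 copy, so the windows are not separate finds. The other Slc7a7 windows did not hold this element. The Slc7a11 stretch below (chr3:50443614-50443863, minus strand) holds it at 66 and 47 bases before the start, in capitals. The Slc7a7 stretch (chr14:54417938-54418194, minus strand) also holds 2 copies in capitals, the second beginning 1 base before the start site and running past it. In the Slc7a8 stretch (chr14:54781887-54782136, minus strand) capitals mark the core GAGGAAG, read on the other strand, of sites of the macrophage factor PU.1, which occurs in 13.6% of windows. The same core was also found in the Slc7a11 window and in other Slc7a7 windows, outside the stretches printed here. The antioxidant response element, searched as TGACNNNGC, occurs in 12.4% of windows. It was found in windows of Slc7a1 and Slc7a6 and in none of these 3 light chains. A match is a description of these letters and not a shown binding site.
Slc7a11: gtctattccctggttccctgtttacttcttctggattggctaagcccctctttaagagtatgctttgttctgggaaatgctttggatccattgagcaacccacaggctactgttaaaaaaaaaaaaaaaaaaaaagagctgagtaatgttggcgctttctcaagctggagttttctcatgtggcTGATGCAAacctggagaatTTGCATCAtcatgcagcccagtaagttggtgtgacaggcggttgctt
Slc7a7: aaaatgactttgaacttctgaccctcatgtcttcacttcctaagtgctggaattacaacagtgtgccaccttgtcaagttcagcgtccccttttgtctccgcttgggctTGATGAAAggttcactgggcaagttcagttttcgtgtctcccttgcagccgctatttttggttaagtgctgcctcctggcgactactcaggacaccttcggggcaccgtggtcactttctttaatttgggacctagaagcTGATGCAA
Slc7a8: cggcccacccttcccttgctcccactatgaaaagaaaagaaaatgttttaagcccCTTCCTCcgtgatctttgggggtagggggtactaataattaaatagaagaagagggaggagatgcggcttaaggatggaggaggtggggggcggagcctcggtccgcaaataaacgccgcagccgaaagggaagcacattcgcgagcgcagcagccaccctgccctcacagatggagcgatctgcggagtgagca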

How the data were processed

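The authors deposited 1 matrix of raw UMI counts per library, with its barcodes and genes (whole-number counts, not normalized). CASAVA 1.8, STARsolo 2.7.10a and Seurat and the build mm10 are named in the submitters' processing notes, without parameters. Gene identity came from the deposited gene tables; 99.5% of their IDs were found in GENCODE vM21.

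Barcodes with at least 200 genes and at most 25% mitochondrial UMIs were kept, and doublets were removed with Scrublet (scanpy 1.11.5, expected rate 0.06), which marked 0.869% to 2.07% per library. No cells were clustered. A cell was assigned to the class with the highest share of its markers detected, if that share was at least 37.5% and led every other of 16 classes by 15 points. The markers were fixed, but the scoring rule was set after the matrices had been seen, and 1751 cells lay within 5 points of the required lead. UMIs were summed per library and class. Sums of at least 20 cells entered the fits, which held 1134 to 35698 cells a class. The main test was edgeR 4.0.16 (R 4.3.3) with TMM scaling, filterByExpr and the quasi-likelihood test, with p-values adjusted over all genes by Benjamini-Hochberg. Genotypes were compared within a class (3 against 4 libraries), and classes with library as a block. Exact permutation tests used scipy 1.17.1. Levels of genes are CPM of the plain class total, with no TMM, so they can differ slightly from fitted differences. A share of cells is printed unthinned and, where said, thinned to 2000 UMIs a cell. Intervals and limits from a count of 0 (3 counts) cover counting error only.

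The members, lists and within-class sets were chosen with earlier results of these data known. Genes named besides the 8 members are the targeted gene, for each member those with the 3 highest correlations, and up to 4 genes of each list with the smallest p in the endothelial genotype comparison. The correlated genes had a mean of at least 20 CPM in the member's highest class. Alternatives were DESeq2 1.42.0, no filter on low counts, a stricter gate (50% and 35 points), a mitochondrial share up to 10%, the replicate number as a block or no library term, leaving out each library, and, added later, library totals without TMM. The tests were checked on simulated data.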

Additional observations from a re-analysis of the deposited data

How the results depend on the processing

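Over 117 recomputed counts of called members, 116 stayed within 1.5 times the main count, among them 0 members called between genotypes in every class under every alternative run. The exception was endothelial cells against the mean of the other 3 classes, where 3 members were called with no library term against 6 with it. Smooth muscle sums lose most cells under the mitochondrial limit of 10%, which leaves 3017 of 19415. That limit also ended the calls of Slc3a2 (0.17) and Slc7a1 (0.33) in endothelial cells and of Slc7a5 in fibroblasts (0.31), and library totals without TMM ended that of Slc7a6 in smooth muscle cells (0.27). Slc7a6 in endothelial cells lost its call with the stricter gate (-0.51), with no filter (-0.56) and without TMM (-0.30), and the stricter gate ended that of Slc7a8 in fibroblasts (-1.01). In simulated sums, 30.8% of 2-fold genotype changes were called in endothelial cells and 45.3% in macrophages.

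Among single genes, 56 recomputed log2 differences changed sign, all of differences that had not been called. With the replicate block, which called 0 members in each genotype comparison, these were endothelial Egr2 (-0.11) and Itgb3 (0.27) and fibroblast Slc3a2 (0.14), Slc7a2 (0.012) and Slc7a6 (-0.056). The replicate numbers were not shown to pair libraries, since same-numbered libraries had deviations correlated at -0.09 to 0.14 in endothelial cells, 0.041 to 0.17 in smooth muscle cells, -0.022 to 0.23 in fibroblasts and -0.060 to 0.069 in macrophages, and not above 0.1 for every pair in any class. With the stricter gate they were endothelial Lgals3 (0.27), Slc3a2 in fibroblasts against the other classes (0.0063) and Slc7a1 in the difference between endothelial and smooth muscle genotype effects (-0.18). With the mitochondrial limit of 10% they were smooth muscle Slc7a2 (0.43) and Slc7a11 (0.040) between genotypes, Slc7a5 in smooth muscle against the other classes (0.41), and the difference of genotype effects for Slc3a2 (-0.11) and Slc7a1 (-0.11). Without TMM, Slc7a6 changed sign in smooth muscle cells (-0.046) and fibroblasts (-0.027). Slc3a2 in fibroblasts against the other classes was 0.072 with no filter and 0.049 with no library term. The cause was not tested for any of these.

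Leaving out each library in turn changed signs for these genotype differences. In endothelial cells the ranges were -0.077 to 0.79 for Egr2, -0.91 to 0.39 for Lgals3 and -0.76 to 0.072 for Slc1a5. In smooth muscle cells they were -0.13 to 0.27 for Slc3a2, -0.15 to 0.076 for Slc7a2, -0.47 to 0.052 for Slc7a5, -0.043 to 0.091 for Slc7a6, -1.06 to 0.074 for Slc7a11 and -0.25 to 0.10 for Slc38a2. In fibroblasts they were -0.31 to 0.51 for Slc3a2, -0.46 to 0.0059 for Slc7a1, -0.27 to 0.067 for Slc7a2, -0.11 to 0.12 for Slc7a6, -0.17 to 0.034 for Slc7a7, -0.49 to 0.021 for Slc7a8 and -0.45 to 0.45 for Slc7a11. In macrophages they were -0.45 to 0.30 for Slc3a2, -0.28 to 0.25 for Slc7a2, -0.52 to 0.10 for Slc7a5 and -0.74 to 0.0090 for Slc7a6. Slc3a2 in fibroblasts against the other classes ran from -0.070 to 0.058, and the difference of genotype effects from -0.14 to 0.20 for Slc7a1 and from -0.32 to 1.52 for Slc7a6.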

Other observations

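The 9 other Slc7 and Slc3 genes in the matrices, among them the kidney cystine carrier Slc7a9 and its heavy chain Slc3a1, were low in the aortic classes. Over the 7 libraries their summed level was 2.49 to 10.2 CPM in endothelial cells, 0.662 to 2.76 CPM in smooth muscle cells, 2.17 to 3.53 CPM in fibroblasts and 3.39 to 17.9 CPM in macrophages. In the comparison between classes 0 of the 9 passed the filter on low counts.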
